A study of Mus musculus with 8 samples.

Results

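The cytosolic ribosomal proteins, which build the small and large subunits of the ribosome outside mitochondria, were followed in medium spiny neurons of a Huntington's disease model mouse. Members were all array probes named for an Rpl or Rps gene with a number, or for Rplp0, Rplp1, Rplp2 or Rpsa, with pseudogenes and the S6 kinases left out. This gave 186 probes for 83 gene names, 51 of the large and 32 of the small subunit, among 34844 names on the array. Of these, 182 probes for 80 genes were well above background, by the scanner software's mark, on at least 4 of the 8 arrays and are called measured.

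Medium spiny neurons (MSNs) are the GABA-releasing projection neurons that make up most of the striatum, and they are the cells most affected in Huntington's disease. Of the 8 samples, 4 came from R6/2;Scn4b-Venus mice, in which the first exon of human HTT, with an expanded CAG repeat, is driven by the human HTT promoter, so that a fragment of mutant huntingtin is made beside the intact mouse protein. The other 4 came from WT;Scn4b-Venus mice. All mice were male and 4 weeks old, and all carried Scn4b-Venus, a fluorescent reporter that marks MSNs. Venus-positive, propidium iodide-negative cells were sorted, and nanogram amounts of total RNA were hybridised with 1 dye, 1 sample to an array. The labels do not say whether the samples were separate animals or pools, so p-values measure the spread between these samples, which may in part be technical.

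Each ribosome holds 1 copy of nearly every ribosomal protein, and cells make them in matched amounts. The mRNAs share a 5′ terminal oligopyrimidine (TOP) tract, a run of C and U that starts at the first base and puts their translation under control of the kinase complex mTORC1, so that protein output can change with no change in mRNA. Ribosomal proteins made in excess are degraded, and free Rpl5 and Rpl11 can bind Mdm2 and stabilise p53.

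The sequence around the annotated start shows which members have runs of C and T there. An annotated start can lie some bases from the one used in these cells, so a run near it is not shown to be the tract. RefSeq promoters on GRCm38.p6 were found for 62 of the 83 names. Each line gives 30 bases, 15 before the start and 15 from it, on the gene's strand. Capitals mark the longest run of C and T that lies at least partly within 10 bases of the start, where T stands for U in the RNA. These genes are shown because their levels are described by name further on.
Rps27 (chr3:90213634-90213663, minus strand): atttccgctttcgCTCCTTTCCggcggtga
Rps6 (chr4:86857353-86857382, minus strand): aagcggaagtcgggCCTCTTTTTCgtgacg
Rpl28 (chr7:4792950-4792979, plus strand): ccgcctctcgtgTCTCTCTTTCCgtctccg
Rplp2 (chr7:141447636-141447665, plus strand): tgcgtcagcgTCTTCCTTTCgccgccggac
Rps26 (chr10:128626492-128626521, minus strand): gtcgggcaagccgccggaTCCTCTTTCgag
Rps15a (chr7:118116133-118116162, minus strand): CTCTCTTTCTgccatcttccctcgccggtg
Rps27l (chr9:66946071-66946100, plus strand): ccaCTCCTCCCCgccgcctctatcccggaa
Rpl5 (chr5:107900513-107900542, plus strand): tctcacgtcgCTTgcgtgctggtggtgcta
Rpl11 (chr4:136053379-136053408, minus strand): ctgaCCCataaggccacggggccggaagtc

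A run of at least 8 C or T was present in 27 of the 62 member genes, or 43.5%, against 13.0% of 69 mitochondrial ribosomal protein genes and 13.9% of all 27025 genes with a promoter. Of the 27 member runs, 16 included the annotated first base, 0 began exactly at it, 6 lay wholly before it (those of Rps15a and Rps27l among them) and 5 began after it. At a minimum of 10 letters the shares were 32.3% of members, 8.7% of mitochondrial ribosomal protein genes and 6.2% of all genes. Rpl5 and Rpl11 had runs of 3 letters, both wholly before the annotated start, and such short runs say only that a longer run was not found in this window. Over the whole window, from 250 bases before the start to 50 from it and on both strands, CCGGAAG, a match to ETS-family factors, was found in 41.9% of members, 37.7% of mitochondrial ribosomal protein genes and 9.9% of all genes. The palindrome CTCGCGAG was found in 11.3% of members, 2.9% of mitochondrial ribosomal protein genes and 1.0% of all genes. TATAAA, searched on the gene's strand only, was found in 9.7% of members and 9.8% of all genes. The median difference of R6/2 minus WT was 0.11 log2 for the 27 measured genes with a run of at least 8 letters and 0.12 log2 for the 32 with a shorter one.

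Ribosomal protein genes have many processed copies in the mouse genome, and the probes carry this problem. A stretch of at least 20 bases was shared with a probe of another name by 81 of the 186 probes. The accessions given with a probe named a second RefSeq gene or pseudogene for 17 probes of 9 genes, and 24 measured probes were placed on a chromosome other than the gene's. Each probe is 60 bases long, coordinates are on mm9 as in the files, and capitals mark the longest stretch shared with a probe of another name.
Rps27 (chr9:114891672-114891731, minus strand): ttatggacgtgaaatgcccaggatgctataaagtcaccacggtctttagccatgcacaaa
Rps27l (chr9:66795486-66797176, plus strand, across an intron): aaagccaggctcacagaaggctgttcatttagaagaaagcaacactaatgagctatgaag
Rpl21 (chr5:147646040-147646581, plus strand, across an intron): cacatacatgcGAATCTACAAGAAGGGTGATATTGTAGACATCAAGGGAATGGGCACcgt
Rps26 (chr10:128062300-128062359, minus strand): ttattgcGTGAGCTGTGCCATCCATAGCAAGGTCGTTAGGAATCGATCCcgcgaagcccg
The Rps27 probe lies on chromosome 9, where RefSeq places the retrogene Rps27rt, while Rps27 itself is on chromosome 3. All 4 Rps27 probes were placed there and list accessions of both genes, so their signals cannot be divided between the pair. The Rpl21 probe shares 46 bases with another probe, and 6 probes of other names share at least 20 bases with it. The Rps26 probe shares 42 bases and lists the pseudogene Gm6654. The brightest Rps15a probe shares 30 bases and lists the pseudogene Rps15a-ps6. The only Rpl22l1 probe shares 54 bases and lists Gm15421. The only Rplp2 probe shares no such stretch but lists Rplp2-ps1 and Wdr89. What these other genes add to the signals was not tested. The median difference was 0.09 log2 for the 79 measured probes with shared sequence and 0.11 log2 for the 103 without, and 70.9% and 72.8% of them lay above 0.

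Levels are log2 of the processed spot intensity minus the 75th percentile of the array's probes, and a gene is represented by its brightest measured probe. Levels of different probes are not comparable, because probes bind with different efficiency. WT replicate 1 stood apart: 50.1% of its probes were well above background, against 74.0% to 78.8% on the R6/2 arrays and 67.8% to 76.2% on the other WT arrays. R6/2 replicate 4 was the only array on slide 2 and scan 2. All pairs of arrays correlated at 0.905 to 0.953 across probes. Of 15 MSN markers, among them Adcy5, Penk, Drd2 and Pde10a, all were measured and had lower means in R6/2 cells, with a median difference of -0.53 log2 and a mean level of 4.85 to 5.06 on R6/2 arrays against 5.34 to 5.69 on WT arrays. All 7 measured oligodendrocyte markers also had lower R6/2 means (median -0.87 log2), and their mean level was -1.63 to -0.24 on R6/2 arrays and -1.42 to 1.79 on WT arrays. Markers of other cell types were mixed: R6/2 means were higher in 4 of 6 astrocyte (median 0.03 log2), 5 of 7 microglial (0.16) and 4 of 6 endothelial genes (0.17). The same held for 2 of 4 interneuron (median 0.10 log2) and 2 of 5 erythrocyte genes (-0.08). Opalin (oligodendrocyte), Gja1 and Gjb6 (astrocyte), P2ry12 (microglia) and Chat and Calb2 (interneuron) were not measured. Whether cell content had a part in the results that follow was not tested.

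No ribosomal protein gene differed between R6/2 and WT MSNs at an adjusted p under 0.05 (limma, Benjamini-Hochberg over all 41378 tested probes). The same test called 1 probe higher and 0 lower in the whole table, or 0.00242% and 0%; without WT replicate 1 it called 3 higher, and without any other single array 0. The lowest adjusted p of a member gene was 0.644, for Rps27l. At an unadjusted p under 0.05, 0 of 80 genes were higher and 1 was lower, against 3.97% and 3.05% of all probes. The differences were small and estimated with fair precision. The median SE was 0.21 log2, beside 0.33 log2 for all tested probes and 0.21 log2 for the brightest 10% of them. For 74 of the 80 genes the 95% interval excluded a 2-fold difference in either direction, which held for 44.6% of all tested probes. That share was not counted for bright probes alone.

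The genes leaned slightly to higher values in R6/2 cells under the main scaling. The median difference was 0.10 log2 over the 80 genes, against 0.05 log2 over all probes, and 57 genes (71.2%) had a difference above 0, against 55.5% of all probes. Most member probes are bright, and shares over bright probes alone are given further on. The lean above 0 depended on the scaling and on single arrays. With arrays scaled to their median, the gene median was 0.0025 log2 and 40 genes lay above 0, beside an all-probe median of -0.05 log2. The excess over the all-probe median was then 0.0491 log2, against 0.049 log2 under the main scaling. Without WT replicate 1 the gene median was 0.03 log2 with 42 genes above 0, against 0.02 log2 for all probes. With quantile normalization it was 0.16 log2 with 68 genes above 0, against 0.03 log2 for all probes. Without WT replicate 2 it was 0.16 log2 with 70, against 0.07 log2 for all probes. Large subunit genes had a median of 0.09 log2 (33 of 48 above 0), and small subunit genes 0.11 log2 (24 of 32 above 0), which was -0.0031 log2 without WT replicate 1. The 76 mitochondrial ribosomal protein genes, which serve the separate ribosome inside mitochondria, had a median of 0.06 log2 with 51 above 0.

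**Figure D1:**
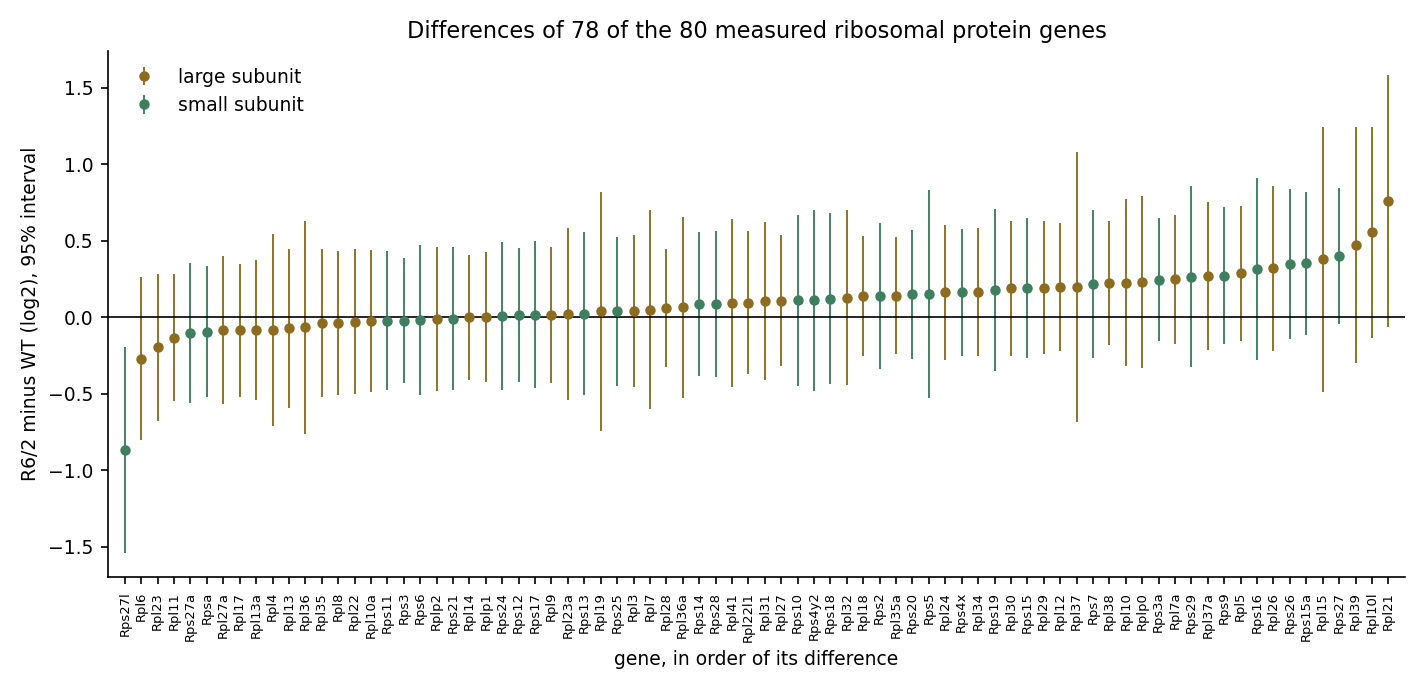
Difference of R6/2 minus WT (log2) for 78 of the 80 measured ribosomal protein genes in rank order, with 95% intervals from limma (n = 4 arrays each); colours give the subunit. The interval of 1 gene, Rps27l, excludes 0, and differences run from -0.87 for Rps27l to 0.76 for Rpl21.

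The members' median shifted from array to array, and over a wider range among WT than among R6/2 arrays. The median of the 80 genes, each taken relative to its own mean, was 0.09, -0.06, 0.05 and 0.08 log2 on R6/2 arrays 1 to 4, against -0.17, 0.19, -0.11 and -0.04 log2 on WT arrays 1 to 4. The WT arrays thus covered a range of 0.36 log2, wider than the 0.15 log2 among R6/2 arrays and than the 0.07 log2 between the group means. Some other sets shared part of this course. The median of all tested probes was -0.12 log2 on WT replicate 1 and 0.11 log2 on WT replicate 2. That of the mitochondrial ribosomal protein genes covered 0.18 log2 among R6/2 arrays and 0.24 log2 among WT arrays. The brightest 10% of probes did not share the low WT replicate 1: their median was 0.01 log2 there and 0.06 log2 on WT replicate 2. It covered 0.09 log2 among R6/2 arrays and 0.06 log2 among WT arrays. WT replicate 2 held the highest value of 30 of the 80 genes and WT replicate 1 the lowest value of 38. Both subunits followed the same course, with medians of -0.16 and -0.20 log2 on WT replicate 1 and of 0.19 and 0.19 log2 on WT replicate 2 for the large and small subunit. The median SD of a member gene was 0.17 log2 among R6/2 arrays and 0.25 log2 among WT arrays, beside 0.43 and 0.46 log2 for all tested probes and 0.19 and 0.24 log2 for the brightest 10% of probes.

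**Figure D2:**
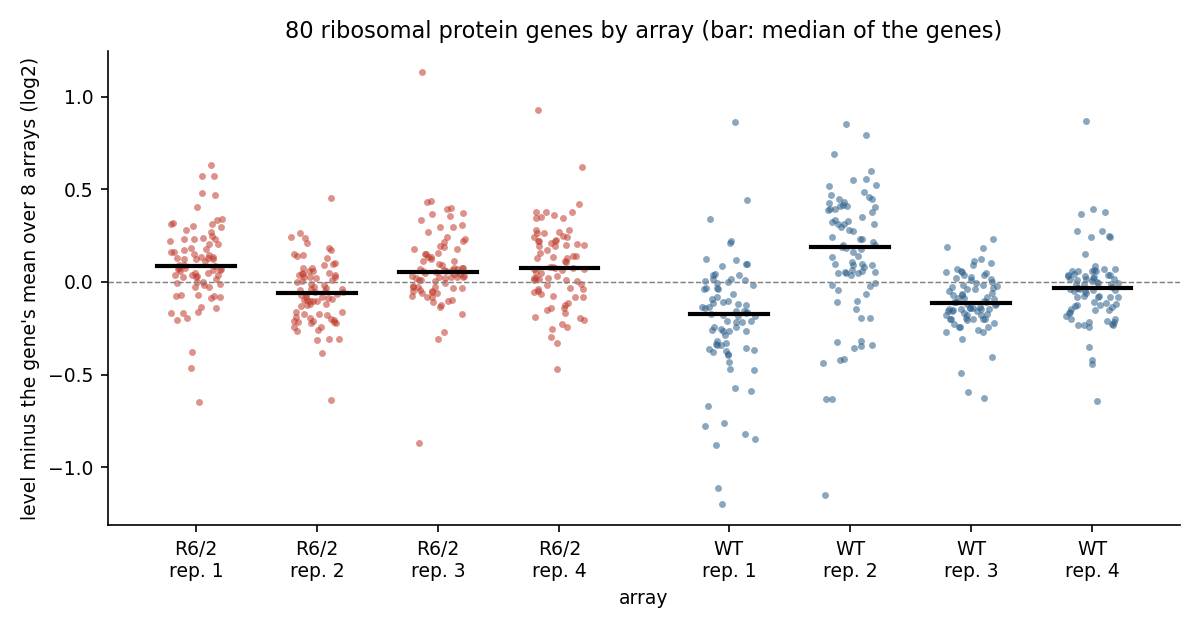
Level of each of the 80 genes on each array minus the gene's mean over 8 arrays (log2, points) with the median of the genes as a bar, R6/2 arrays on the left. The medians of the R6/2 arrays lie between -0.06 and 0.09 and those of the WT arrays between -0.17 and 0.19, so the groups overlap.

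The difference also varied with brightness. Of the 182 measured member probes, 155 lay in the 3 brightest of the 10 brightness classes of equal size formed from all tested probes, 78 of them in the brightest. In that class the median difference was 0.08 log2 for member probes and -0.03 log2 for all probes, and without WT replicate 1 it was 0.0023 log2 for members and -0.05 log2 for all probes. In the dimmest class the median of all probes was 0.23 log2, and 0.15 log2 without WT replicate 1. Of all probes, 66.1% lay above 0 in the dimmest class, and 49.7%, 48.1% and 43.8% in the 3 brightest, the brightest last. In the brightest class, 27 of 4138 probes were higher and 203 lower at an unadjusted limma p under 0.05. Groups there did not overlap in 55 probes with R6/2 higher and in 239 with R6/2 lower. Shares over all probes thus differ from those over bright ones.

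**Figure D3:**
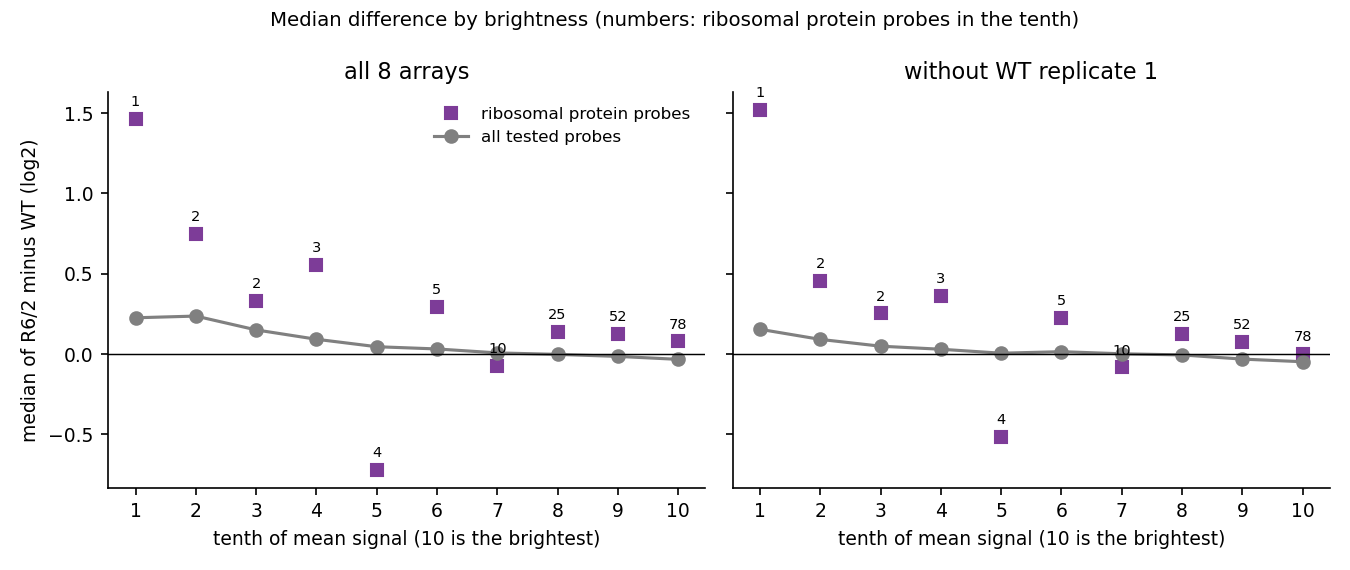
Median difference of R6/2 minus WT (log2) by class of mean signal, from 1 (dimmest) to 10 (brightest), for ribosomal protein probes (squares, with their number) and all tested probes (circles), on all 8 arrays and without WT replicate 1. Member medians in the 3 brightest classes lie at 0.14, 0.13 and 0.08 with all arrays, and at 0.13, 0.08 and 0.0023 without WT replicate 1.

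Among small subunit proteins, Rps27 was the only gene whose groups did not overlap on its representing probe. Its levels were 1.87, 1.79, 2.13 and 2.12 on R6/2 arrays 1 to 4, against 1.38, 1.46, 1.74 and 1.73 on WT arrays. Every R6/2 value lay above every WT value, though the gap between the closest pair was small. Rps27 averaged 1.98 ± 0.18 in R6/2 cells and 1.58 ± 0.18 in WT cells (SD, n = 4 each), a difference of 0.40 ± 0.19 log2 (SE; limma adjusted p = 0.736). Groups did not overlap in 1 of 80 genes (1.25%) with R6/2 higher and in 0 with R6/2 lower, against 2.31% and 2.26% of all probes. Smaller groups separate more readily: the count with R6/2 higher was 2 without WT replicate 3 or R6/2 replicate 3, 3 without R6/2 replicate 4, 4 without R6/2 replicate 2, 5 without WT replicate 1, WT replicate 4 or R6/2 replicate 1, and 10 without WT replicate 2, while 3.76% to 5.13% of all probes were then separate. The other 3 Rps27 probes had overlapping groups and differences of 0.02, 0.14 and 0.15 log2.

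Rps27l, a paralog of Rps27 known in human cells as a p53 target, had the lowest unadjusted p of the set. Its levels were -1.23, -2.11, -2.33 and -1.94 on R6/2 arrays 1 to 4, against -0.61, -0.98, -1.44 and -1.10 on WT arrays. R6/2 replicate 1 lay above WT replicate 3, so the groups overlapped, while the other R6/2 arrays lay below all WT arrays. The difference was -0.87 ± 0.30 log2, or 0.548 times the WT level, with a 95% interval of -1.54 to -0.20 (limma adjusted p = 0.644). It stayed between -1.09 and -0.60 log2 under all 21 alternatives.

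Rps15a, a core protein of the small subunit, averaged 3.63 ± 0.11 in R6/2 cells and 3.27 ± 0.28 in WT cells (SD, n = 4 each). WT replicate 1, at 3.67, lay among the R6/2 arrays, and the other WT arrays lay below all of them. The difference was 0.35 ± 0.21 log2 (limma adjusted p = 0.772). Rps26, which contacts mRNA near the exit site, measured 2.65, 1.97, 2.09 and 2.30 on R6/2 arrays and 2.09, 1.75, 1.81 and 1.97 on WT arrays, and its difference was 0.35 ± 0.21 log2 (limma adjusted p = 0.783). Rps27a, made as a fusion with ubiquitin, differed by -0.10 ± 0.20 log2, and Rpsa, also known as the laminin receptor, by -0.10 ± 0.19 log2. The sign of Rps27a turned without WT replicate 2 (0.01 log2), and that of Rpsa when its probes were averaged (0.01 log2). The 3 Rps27a probes ran from -0.15 to 0.15 log2 and the 4 Rpsa probes from -0.22 to 0.29 log2.

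Among large subunit proteins, Rpl21 had the largest positive difference and a split WT group. It measured 2.90, 2.52, 2.64 and 2.55 on R6/2 arrays 1 to 4, against 1.39, 1.12, 2.39 and 2.66 on WT arrays. R6/2 arrays were close to each other, while WT replicates 1 and 2 lay well below the other WT arrays, and WT replicate 4 lay above 3 R6/2 arrays. The difference was 0.76 ± 0.36 log2 with a 95% interval of -0.06 to 1.59 (limma adjusted p = 0.733). Of its other 2 probes, one differed by 0.55 log2. The dimmer was well above background on 4 R6/2 arrays and 1 WT array, so it passed the minimum through the R6/2 arrays, and its 1.46 log2 is no support for the difference of the gene.

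In the other direction, Rpl6 averaged 2.99 ± 0.14 in R6/2 cells and 3.26 ± 0.37 in WT cells, a difference of -0.27 ± 0.23 log2, with WT replicates 1 and 2 the high arrays. Rpl23, which like Rpl5 and Rpl11 can bind Mdm2, measured 5.66, 5.54, 5.66 and 5.68 on R6/2 arrays and 5.52, 6.26, 5.75 and 5.80 on WT arrays. Its difference of -0.20 ± 0.21 log2 rested largely on WT replicate 2 and was -0.06 log2 without it. The 3 Rpl23 probes ran from -0.43 to 0.01 log2.

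The partners of 5S ribosomal RNA, Rpl5 and Rpl11, had differences whose intervals include 0. Rpl5 measured 2.26, 1.89, 2.06 and 2.14 on R6/2 arrays, against 1.91, 1.53, 1.80 and 1.96 on WT arrays, and 3 R6/2 arrays lay above every WT array. Its difference was 0.29 ± 0.19 log2 (limma adjusted p = 0.794). Rpl11 measured 2.12, 2.25, 2.10 and 2.08 on R6/2 arrays, against 2.07, 2.51, 2.25 and 2.24 on WT arrays, a difference of -0.13 ± 0.18 log2 (limma adjusted p = 0.908). The 3 Rpl11 probes ran from -0.13 to 0.05 log2, so its sign depended on the probe, and Rpl5 had 1 probe. The difference between the genes was not tested. Of 9 genes of the p53 pathway, all measured, 5 had higher and 4 lower R6/2 means with a median of 0.10 log2. The list holds Trp53 itself and Cdkn2a, both lower, so it is not a list of p53 targets alone. None of them passed the test, and the smallest p belonged to Ccng1 (0.39 ± 0.24 log2), followed by Zmat3 (-0.34 ± 0.25) and Sesn2 (0.34 ± 0.33).

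The P stalk, the arm of the large subunit that recruits and activates translation factors, showed no difference beyond its error. Rplp0, its anchor, measured 2.00, 1.68, 2.27 and 2.01 on R6/2 arrays, against 1.69, 2.15, 1.28 and 1.92 on WT arrays, a difference of 0.23 ± 0.25 log2 with overlapping groups. The 3 Rplp0 probes ran from -0.17 to 0.32 log2. Rplp1 differed by 0.0006 ± 0.19 log2 and Rplp2 by -0.01 ± 0.21 log2. Signs of differences this close to 0 turned with the processing, and the 95% intervals of Rplp1, -0.42 to 0.43, and of Rplp2, -0.48 to 0.46, allow changes in either direction.

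Paralogs, which can replace a core protein in some ribosomes, were partly out of reach. Rpl3l, known from heart and skeletal muscle, and Rpl39l, known from testis, were above background on 0 of 8 arrays. Rpl7l1, a ribosome biogenesis factor, was above background on 2 of 8 arrays, both R6/2, and fell outside the minimum of 4. Rpl10l, an autosomal copy of X-linked Rpl10 known from testis, was above background on 7 of 8 arrays and measured -2.61, -2.43, -2.57 and -1.67 on R6/2 arrays, against -3.45, -2.46, -2.84 and -2.76 on WT arrays. Its difference was 0.55 ± 0.30 log2 (limma adjusted p = 0.753), and R6/2 replicate 4 and WT replicate 1 were the extremes. Rpl22l1, a paralog of Rpl22, differed by 0.09 ± 0.21 log2 (turning to -0.0031 with median scaling), and Rps4y2, an autosomal copy of Rps4x now named Rps4l, by 0.11 ± 0.26 log2.

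**Figure D4:**
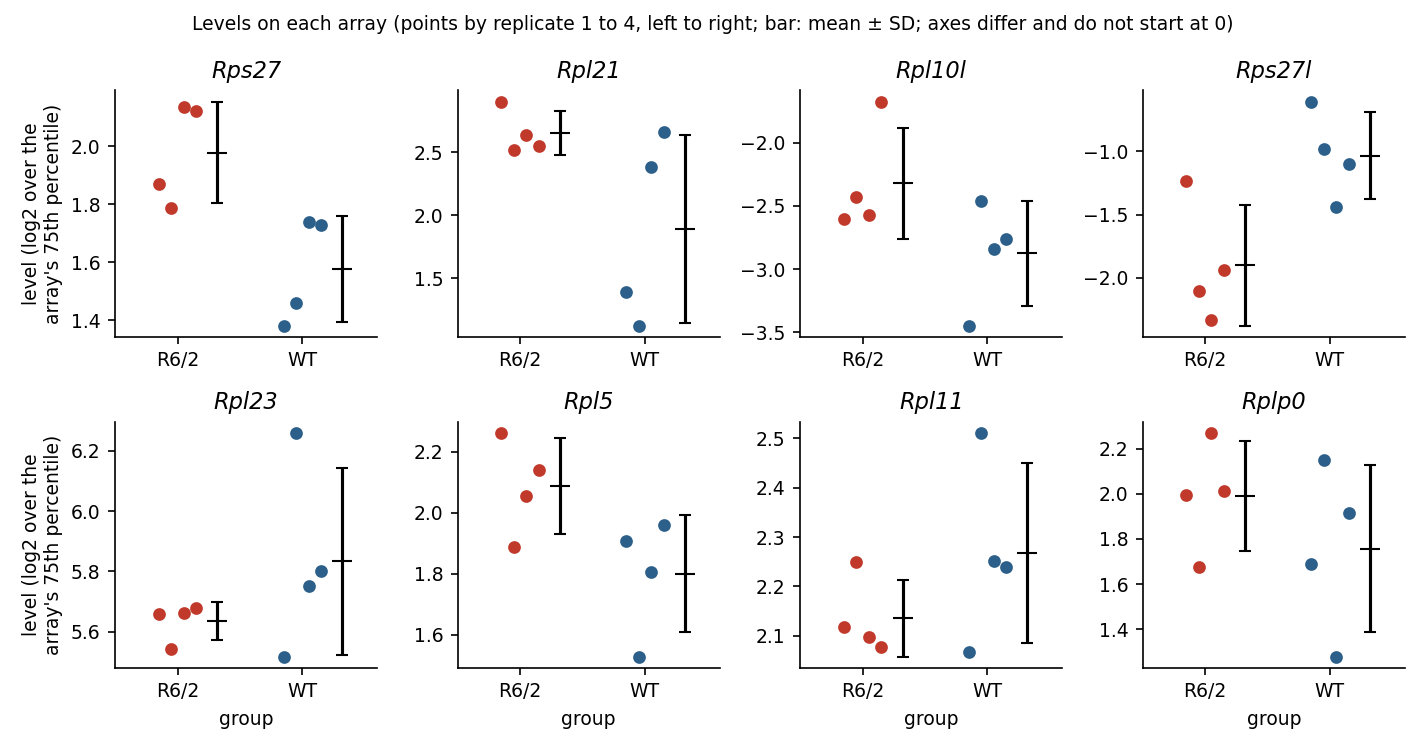
Levels (log2 over the array's 75th percentile) of 8 named genes on each array, R6/2 on the left, with mean ± SD (n = 4 each) beside the points. The groups are separate for Rps27, and overlap for the other genes shown; the low WT pair of Rpl21 and the high WT replicate 2 of Rpl23 stand out.

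Probes named for one gene often disagreed. Of 56 genes with more than 1 measured probe, 31 had all probes above 0, 3 had all below 0 and 22 had both signs. Over all 182 probes the median difference was 0.11 log2, 131 lay above 0, and groups did not overlap with R6/2 higher in 9 (4.95%, against 2.31% of all probes) and with R6/2 lower in 0 (against 2.26%). These 9 probes belong to Rpl13a (2 probes), Rpl15, Rpl28, Rpl30, Rpl35a, Rps2, Rps6 and Rps27, and probes of 1 gene share a target. None passed adjustment. At an unadjusted p under 0.05, 7 probes were higher (3.85%) and 4 lower (2.20%), against 3.97% and 3.05% of all probes.

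Rps6, the S6 protein phosphorylated downstream of mTORC1, gave the lowest p of any member probe. On the dimmer probe at chr4:86500063-86500122 (mm9, minus strand) it measured -0.07, -0.44, -0.27 and -0.28 on R6/2 arrays, against -1.27, -0.87, -1.26 and -0.92 on WT arrays. Every R6/2 array was higher, by 0.81 ± 0.20 log2 on average (limma adjusted p = 0.552). The brightest Rps6 probe, 1870 bases upstream on the genome, differed by -0.02 ± 0.22 log2, so the probes do not describe one change of the gene.

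Rpl28 showed the same split, with a brightest probe placed on chromosome 4 although the gene is on chromosome 7. That probe differed by 0.06 ± 0.17 log2. The probe at the gene's chromosome, chr7:4744951-4745010 (mm9, plus strand), is shown for its place in the gene itself:
Rpl28: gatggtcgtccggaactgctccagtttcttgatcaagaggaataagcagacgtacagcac
It measured 0.58, -0.12, 0.47 and 0.44 on R6/2 arrays, against -0.43, -1.11, -0.51 and -0.12 on WT arrays, with R6/2 replicate 2 and WT replicate 4 almost level. Its difference was 0.88 ± 0.27 log2 (limma adjusted p = 0.606). The files place the Rps2 probes 18007258 bases apart on chromosome 17, so they do not lie at one gene, and the brighter probe shares at least 20 bases with 5 probes of other names. The brighter probe differed by 0.14 ± 0.21 log2 and the other by 0.74 ± 0.22 log2 (limma adjusted p = 0.593), with values of 1.53, 1.53, 1.63 and 1.35 on R6/2 arrays against 0.81, 0.39, 0.66 and 1.20 on WT arrays. For Rpl13a, 2 dimmer probes differed by 0.57 and 0.68 log2 and the brightest by -0.08 log2.

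Other probes lay below 0. One of 7 Rpl17 probes measured -3.45, -3.64, -2.09 and -0.89 on R6/2 arrays, against -0.17, 0.06, -0.98 and -1.80 on WT arrays, a difference of -1.80 ± 0.67 log2 (limma adjusted p = 0.675), and both groups were widely spread. The other Rpl17 probes lay at 0.17 log2 or below, with -0.08 log2 for the brightest. Single probes of Rpl6 (-0.74), Rpl27a (-0.69), Rpl14 (-0.57) and Rpl31 (-0.49) lay below the brightest probe of their gene, and single probes of Rpl8 (0.50), Rps3 (0.49) and Rpsa (0.29) above it. In all, 15 genes had probes more than 0.5 log2 apart. In 9 of them the probe farthest from the brightest one was the most downstream of the gene's measured probes on its chromosome. With few measured probes per gene a probe often lies at an end, and no share to compare with this count was taken. In the set as a whole 8 genes were represented by a probe placed on another chromosome, and with probes on the gene's own chromosome, 76 genes had a median of 0.11 log2.

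**Figure D5:**
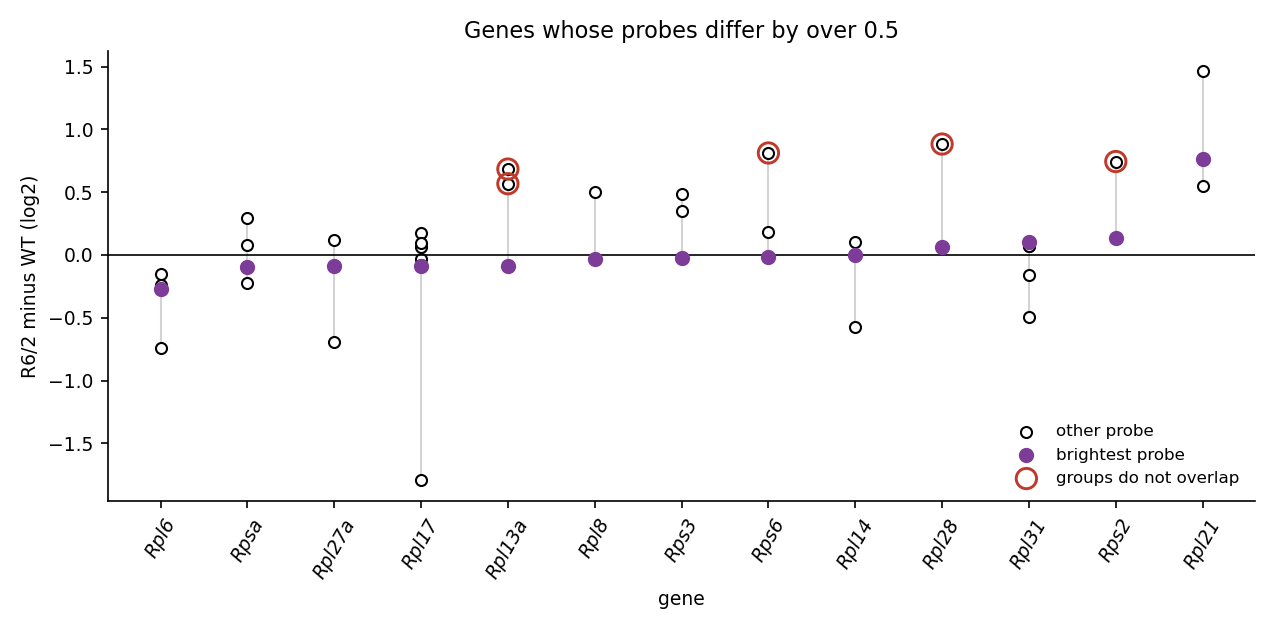
Difference of R6/2 minus WT (log2) of every measured probe for 13 of the 15 genes whose probes lie more than 0.5 log2 apart, with the brightest probe filled and probes whose groups do not overlap ringed. Ringed probes of Rpl13a, Rps6, Rpl28 and Rps2 lie between 0.57 and 0.88 while the brightest probes of these genes lie between -0.08 and 0.14.

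Genes that make ribosomes or share their control were read beside the members, from lists drawn up by function with earlier results of these data known. Of 68 ribosome biogenesis genes, 42 had higher R6/2 means (median 0.06 log2) and none passed the test. Nop14, a small subunit processing factor, measured 0.54, 0.17, 0.31 and -0.04 on R6/2 arrays, against -0.58, -2.18, -0.62 and -0.36 on WT arrays, a difference of 1.18 ± 0.40 log2 (limma adjusted p = 0.644). Dimt1, which methylates small subunit RNA, differed by 0.95 ± 0.38 log2 and Aamp by 0.43 ± 0.19 log2, also with separate groups. Groups were separate with R6/2 higher in 3 of these 68 genes, against 2.31% of all probes, and with R6/2 lower in 0.

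RNA polymerase I genes, which transcribe ribosomal RNA, were even: 8 of 15 had higher R6/2 means, with a median of 0.01 log2. Taf1c, a subunit of the polymerase I selectivity factor, measured -2.88, -2.75, -2.85 and -3.74 on R6/2 arrays, against 0.83, -1.21, -2.29 and -2.05 on WT arrays, with separate groups and a wide WT spread (-1.87 ± 0.65 log2, limma adjusted p = 0.653). Ttf1 (-0.54 ± 0.37) and Polr1d (0.40 ± 0.26) had overlapping groups.

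Genes listed as having mRNAs with TOP tracts, mostly translation factors, had a median of 0.03 log2 with 15 of 24 above 0. Whether each of them carries a tract was not examined. Eef2, the elongation factor that moves the ribosome along, differed by 0.33 ± 0.23 log2, Eif3k by -0.32 ± 0.25 log2, and Nap1l1, a histone chaperone, by -0.28 ± 0.17 log2 with separate groups. Of 25 other initiation factors 10 lay above 0 (median -0.08 log2), led by Eif1ax (0.47 ± 0.22), Eif3c (-0.38 ± 0.22) and Eif2b1 (0.63 ± 0.38). Of 18 measured genes of mTORC1 and TOP control 8 lay above 0 (median -0.02 log2), led by Eif4ebp2 (0.86 ± 0.49), Rps6kb2 (0.40 ± 0.31) and Tsc1 (-0.27 ± 0.21), while Akt1s1 was not measured. None of these genes passed the test.

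The noncoding hosts of small nucleolar RNAs make no protein and were listed as having TOP tracts, which were not examined here either. They had the highest median of these lists, 0.20 log2 with 8 of 10 above 0. Snhg1 measured 1.28, 1.04, 0.80 and 0.87 on R6/2 arrays, against -0.06, -0.39, 0.01 and 0.03 on WT arrays. Every R6/2 array was higher than every WT array by a wide margin, and the difference was 1.10 ± 0.20 log2 (limma adjusted p = 0.395). Snhg12 differed by 0.67 ± 0.24 log2 and Snhg3 by 0.78 ± 0.38 log2, both with overlapping groups.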

How the data were processed

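RNA of 8 sorted MSN samples was measured on Agilent arrays with 1 dye. Per the file headers, the deposited scanner files hold spot intensity from Agilent Feature Extraction 10.7.3.1, background-subtracted and detrended by the software and not scaled between arrays, with probe coordinates on mm9. The deposited whole-series table holds the authors' log2 values, scaled to each array's 75th percentile, and, per its header, a t-test p-value and an absolute fold (a ratio); these served only as alternatives. In R6/2 replicate 3, 1 garbled line was left out.

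Processed intensity was taken to log2, outlier spots were left out, spots of a probe averaged, and the array's 75th percentile over non-control probes subtracted. Probes marked by the software as well above background on 4 or more arrays, in a majority or an even split of their kept spots, were tested (41378 of 55681), with limma 3.58.1 on R 4.3.3 (lmFit, eBayes, two-sided, Benjamini-Hochberg over all tested probes, threshold 0.05). The number of arrays limits the precision. No member value was missing, dropped or imputed, and no spot was marked as saturated. Member names were matched to RefSeq (GRCm38.p6) by accession for 172 probes, by symbol for 13 and by older symbol for 1, and start-site sequences are RefSeq's.

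Genes are named where they passed the threshold, had separate groups or the 6 smallest p in each direction, belong to the P stalk, 5S partners or paralogs, had probes over 0.5 log2 apart or were not measured; each list adds up to 3 genes with the smallest p. Members and lists were chosen with earlier results of these data known. Replicate numbers did not pair the samples. Values of 2 member genes are not reported here by name; they stay in all counts and medians of the set.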

Additional observations from a re-analysis of the deposited data

Results flagged for a closer look

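Among 60 groups of 4 values of named genes and array summaries, 1 had an array far from the others by its gap to the nearest array divided by the group's range, and chance gives about 1 in 20. Rpl23 in R6/2 cells had a ratio of 0.838, with R6/2 replicate 2 at 5.54 and the other R6/2 arrays at 5.66 to 5.68, a gap that is small on the log2 scale.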

How the results depend on the processing

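No member gene passed the adjusted threshold under any of 23 alternatives, of which 2 (every measured probe, and probes on the gene's own chromosome) were chosen after seeing the data. The gene median ran from 0.0025 to 0.1626 log2 and its excess over the all-probe median from 0.0148 to 0.1361 log2. Of 27 named genes, 14 kept their sign under all their alternatives. The alternative without saturated members was not run, since no spot was marked as saturated. The cause of the moves given here was not tested.

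Probes called in the whole table numbered 1 higher and 0 lower in the main setting. They numbered 5 higher and 3 lower with normexp, 2 higher with quantile normalization, 4 higher and 3 lower over probes above background on all arrays, 4 higher and 1 lower with the mean of a gene's probes, 5 higher and 3 lower with a trended robust fit, and 0 with the methods' t-test and with the replicate block. The block, which the arrays' correlations by number (-0.043 to 0.022) do not call for, changed no member's call. Leaving out 1 array gave 0 to 3 higher.

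Member genes at an unadjusted p under 0.05 numbered 1 of 80 (7.02% of all tested probes), and 3 with normexp (7.08%), 2 with quantile normalization (6.57%), 2 with the percentile over probes above background on all arrays (7.23%), 5 with the mean of probes (7.23% of genes), 5 with the methods' t-test (6.75%), 3 with the trended robust fit (7.21%), 2 of 76 with probes on the gene's chromosome and 11 of 182 with every measured probe (both 7.02%), and 0 to 2 without 1 array (5.82% to 7.40%). Member genes with separate groups and R6/2 higher numbered 1 (2.31% of all tested probes), and 3 with normexp (1.6%), 5 with quantile normalization (2.21%), 6 with that percentile (2.91%), 6 with the mean of probes (2.40%), 9 of 182 with every measured probe (2.31%), and 2 to 10 without 1 array (3.76% to 5.13%). With R6/2 lower they numbered 1 with the mean of probes (2.21%) and 0 to 1 without 1 array (3.26% to 4.47%).

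Signs turned for genes near 0. With normexp Rplp1 was -0.0090, Rplp2 0.0347 and Rpl14 0.0446 log2. With quantile normalization Rplp2 was 0.0808, Rpl14 0.0705, Rpl8 0.0262, Rps3 0.0615 and Rps6 0.0456. With median scaling Rpl22l1 was -0.0031, Rplp1 -0.0968 and Rpl28 -0.0374. With the percentile over probes above background on all arrays Rplp2 was 0.0335, Rpl14 0.0423, Rpl8 0.0081, Rps3 0.0222 and Rps6 0.0251. With the authors' log2 values Rplp1 was -0.0011, and with the slide as a random block Rpl14 was 0.0006. With the mean of probes Rpsa was 0.0143, Rpl13a 0.3895, Rpl31 -0.0816, Rpl8 0.2344, Rps3 0.2725 and Rps6 0.3254.

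Without 1 array, Rps27a ranged from -0.1710 to 0.0140 log2, Rplp1 from -0.0704 to 0.0625, Rplp2 from -0.1207 to 0.1138, Rpl14 from -0.0615 to 0.0561, Rpl27a from -0.1701 to 0.0376, Rpl31 from -0.0070 to 0.2481, Rpl8 from -0.1044 to 0.0901, Rps3 from -0.0685 to 0.0520 and Rps6 from -0.1257 to 0.0815.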

Other observations

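In the authors' deposited table, 5 of the 80 member genes had an uncorrected t-test p under 0.05 on their representing probe, or 6.25%, against 6.76% of the tested probes in that table, and these genes were picked out after their values were seen. The authors' deposited table gives Rps27 (1.32-fold), Rps3a (1.18-fold), Rpl38 (1.17-fold) and Rpl35a (1.10-fold) as up and Rps27l (1.83-fold) as down. Rps3a, Rpl38 and Rpl35a differed by 0.25, 0.22 and 0.14 log2 in the limma fit.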
